A study of Homo sapiens with 9 samples.

Results

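CASP14 and 7 further caspase genes, CASP1, CASP2, CASP4, CASP6, CASP8, CASP9 and CASP10, were described in the human HCC cell line MHCC97L and in its drug-resistant derivatives. The 8 genes were chosen by name from the 20030 genes listed, and CASP14 was chosen on its own read counts in these libraries, so its levels and differences are given as a description with no test. All 8 passed the filter on low counts in the comparisons. MHCC97L is an established hepatocellular carcinoma line and was sequenced without treatment. MHCC97L-Src was derived from it by growth in rising saracatinib, an inhibitor of the kinase Src, until stably resistant to 4 μmol/L. MHCC97L-Oxa was derived from it likewise and was stably resistant to 2 μmol/L oxaliplatin, a platinum drug that crosslinks DNA. The labels give the treatment as none for MHCC97L, saracatinib for MHCC97L-Src and oxaliplatin for MHCC97L-Oxa. Drug exposure and stable resistance therefore cannot be told apart. Each of the 3 lines was represented by 3 libraries of poly(A) RNA, 9 in all. Nothing in the labels says whether the libraries of a line came from separate cultures. The paper speaks of 3 independent experiments for MHCC97L and MHCC97L-Src and does not say what was repeated in each. The p-values therefore measure only the spread between these libraries, and each resistant line is a single selected line.

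Caspases are proteases that cut after aspartate and are made as inactive precursors. Initiator caspases are activated on large complexes: caspase-9 on the apoptosome, caspase-8 and caspase-10 at death receptors, and caspase-2 on the PIDDosome. Executioner caspases such as caspase-6 then cut structural proteins including lamins. Caspase-1 and caspase-4 belong to the inflammatory branch, which cuts interleukin precursors and gasdermin D. Caspase-14 stands apart: it is known mainly from the outer epidermis, where it is activated during cornification and takes part in the breakdown of filaggrin, and it has no established role in apoptosis. It is not a usual gene of liver cells.

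In GRCh38 (GENCODE release 29), CASP14 lies alone among the caspases on chr19:15049384-15058293, on the plus strand. CASP4 (chr11:104942866-104969436) and CASP1 (chr11:105025443-105035250) lie in one cluster on the minus strand of chromosome 11. CASP10 (chr2:201182881-201229406) and CASP8 (chr2:201233443-201287711) lie side by side on the plus strand of chromosome 2. CASP2 lies at chr7:143288215-143307696 on the plus strand, CASP6 at chr4:109688622-109703583 and CASP9 at chr1:15490832-15526534, both on the minus strand. Annotated genes on the opposite strand overlap CASP6 (MCUB) and CASP9 (CELA2B), and the counting is not stated to use strand, so reads from such pairs may not have been told apart.

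The stretches just before the CASP14 and CASP2 starts are shown because these genes were the most abundant caspases of the resistant and of the parental line. Both are RefSeq sequences of GRCh38.p14 on the plus strand, printed from 5′ to 3′ and ending before the first transcribed base of either annotation. Capitals mark an AP-1 motif, written TGANTCA with N for any base, and CCAAT boxes, named by their letters. They also mark GC boxes, written GGGCGG. Motifs on the opposite strand appear as their reverse complement.
CASP14, chr19:15049230-15049383: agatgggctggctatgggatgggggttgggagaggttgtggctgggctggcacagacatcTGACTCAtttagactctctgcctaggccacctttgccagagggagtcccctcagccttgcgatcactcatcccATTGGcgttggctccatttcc
CASP2, chr7:143288101-143288214: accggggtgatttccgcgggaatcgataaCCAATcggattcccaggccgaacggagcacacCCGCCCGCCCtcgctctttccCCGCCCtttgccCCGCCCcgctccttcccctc

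The motif search covered the 250 bases before the RefSeq start on both strands and had a promoter for 6 of the 8 genes, all but CASP1 and CASP10. The AP-1 letters TGACTCA began 190 bases before the CASP14 start. The motif TGANTCA was in none of the other 5 caspase promoters and in 6.57% of 35116 human promoters of the same length. A CCAAT box was in the promoters of CASP14, CASP2 and CASP4 and in 32.0% of all promoters. A GC box was in those of CASP2, CASP4, CASP6, CASP8 and CASP9 but not in that of CASP14, against 42.6% of all. The AP-1 and CCAAT motifs did not overlap, whereas the first 2 of the 4 GC boxes of CASP2 overlapped each other. None of the 6 held a TATA box (TATAAA, 10.7% of all promoters), an E-box (CACGTG, 6.34%) or an interferon response element (3.02%). The CASP14 window held 4 CpG pairs and the CASP2 window 29, against a median of 11.0 over all promoters. Those of CASP4, CASP8, CASP6 and CASP9 held 2, 6, 26 and 29, and 34.3% of all promoters held as few as CASP14. These matches describe letters and not bound sites.

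CASP14 RNA was low in MHCC97L and abundant in both resistant lines, most of all in MHCC97L-Src. In MHCC97L, 210, 121 and 119 reads were counted on CASP14 in replicates 1, 2 and 3. In MHCC97L-Src the counts were 7431, 7978 and 4417. In MHCC97L-Oxa they were 3625, 2849 and 2620. The 3 lines did not overlap: every resistant library was far above every parental one, and the lowest MHCC97L-Src library was still above the highest MHCC97L-Oxa library. Counts scaled to the reads on genes of each library (CPM) were 8.44 ± 2.99 (SD, n = 3) in MHCC97L, 383 ± 116 (SD, n = 3) in MHCC97L-Src and 169 ± 27.1 (SD, n = 3) in MHCC97L-Oxa.

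The mean CPM of CASP14 was thus 45.4-fold higher in MHCC97L-Src than in MHCC97L and 19.96-fold higher in MHCC97L-Oxa. Setting the lowest resistant library against the highest parental one still gave 21.1-fold and 12.4-fold. The log2 fold change fitted by edgeR was 5.61 ± 0.40 (SE) for MHCC97L-Src and 4.35 ± 0.30 (SE) for MHCC97L-Oxa. Of 12037 genes tested, 7 had a larger log2 rise than CASP14 in MHCC97L-Src, and of 12064 tested, 9 had a larger one in MHCC97L-Oxa. Both comparisons used the same MHCC97L libraries. Between the resistant lines CASP14 was 2.28-fold higher in mean CPM in MHCC97L-Src, with a log2 fold change of 1.25 ± 0.24 (SE), and 116 of 11994 genes had a larger one.

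**Figure D1:**
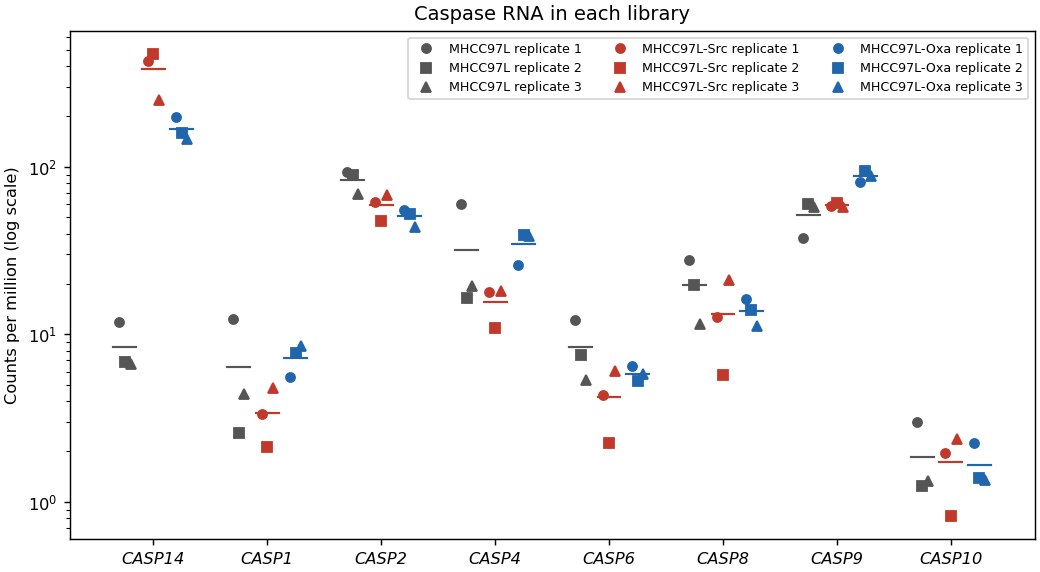
CPM (log axis) of the 8 caspase genes in each of the 9 libraries, coloured by line, with symbols for replicates and short lines for the mean of 3 libraries. CASP14 runs from 6.62 CPM in MHCC97L to 470 CPM in MHCC97L-Src, while each of the other 7 genes stays within 1 order of magnitude.

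Per transcript length, CASP14 went from a minor to the leading caspase of the set. Its FPKM (fragments scaled to transcript length and library size) was 2.27, 1.24 and 1.24 in the parental libraries, 76.3, 85.1 and 46.8 in MHCC97L-Src libraries and 37.7, 29.7 and 27.2 in those of MHCC97L-Oxa. It took 2.68% to 3.66% of the summed FPKM of the 8 genes in MHCC97L, 53.1% to 74.3% in MHCC97L-Src and 36.9% to 45.5% in MHCC97L-Oxa. It was the sixth of the 8 in each MHCC97L library, where CASP2 led, and the first in all 6 resistant libraries. Among all genes with an FPKM above 0 it stood at the top 58.2% to 63.4% in MHCC97L, the top 5.61% to 9.62% in MHCC97L-Src and the top 11.7% to 15.3% in MHCC97L-Oxa.

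**Figure D2:**
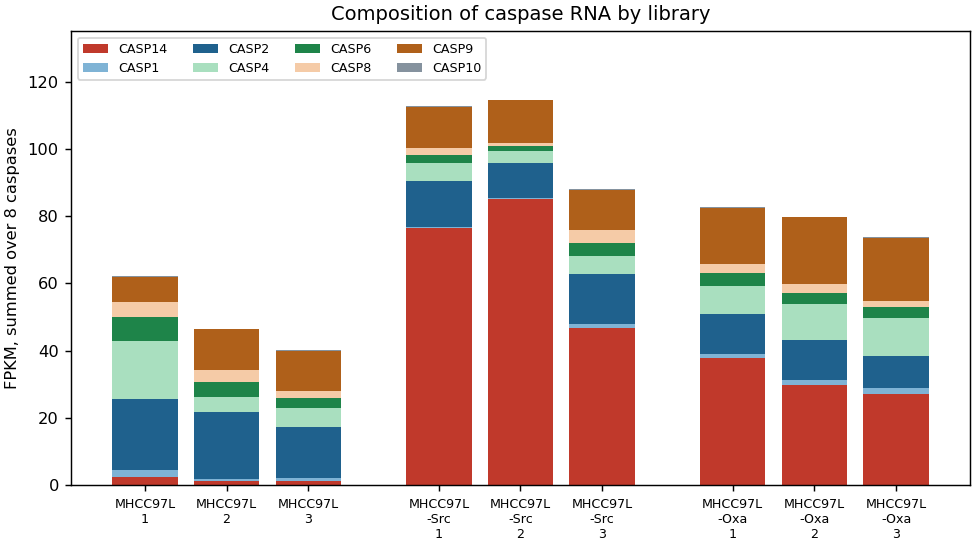
FPKM of the 8 caspase genes stacked for each library, grouped by line and numbered by replicate. CASP14 fills 2.68% to 3.66% of the bar in MHCC97L, 36.9% to 45.5% in MHCC97L-Oxa and 53.1% to 74.3% in MHCC97L-Src.

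In raw reads, which are not corrected for length, CASP14 took 4.60% of the reads on the 8 genes in MHCC97L replicate 1 (Wilson 95% interval 4.03% to 5.24%). In MHCC97L-Src replicate 2 this was 78.3% (77.5% to 79.1%). These intervals cover counting error only. The summed FPKM of the other 7 genes was 38.9 to 59.8 in MHCC97L, 29.4 to 41.4 in MHCC97L-Src and 45.1 to 50.1 in MHCC97L-Oxa, so the larger totals of the resistant lines came from CASP14. Levels in bulk RNA cannot tell more RNA per cell from more cells that hold it.

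The libraries held 16970486 to 18209213 counts each, and a floor of 3 counts was 0.165 to 0.177 CPM. MHCC97L replicate 1 stood apart: across genes, which are not independent, its deviation from the mean of all libraries fell with GC content (Spearman's rho −0.781), against −0.255 and 0.299 in the other 2 MHCC97L libraries, 0.166 to 0.309 in MHCC97L-Oxa and 0.188 to 0.699 in MHCC97L-Src. Among the caspases other than CASP14, 6 of 7 had their highest CPM of all 9 libraries there, and 44.3% of 11929 genes did. These 6 had a GC content of 38.3% to 46.1%, and the exception was CASP9 with 52.8%. CASP14, at 48.2%, was close to the median gene (49.1%). Without this library its log2 fold change was 5.91 ± 0.37 (SE) in MHCC97L-Src and 4.70 ± 0.17 (SE) in MHCC97L-Oxa.

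The labels call the lines hepatoma cells, but the liver genes ALB, AFP, APOB and TTR had no count in any library, which allows up to 0.165 to 0.177 CPM each, whereas the epithelial keratins KRT8 and KRT18 had 22160 counts or more in every library. Leukocyte markers PTPRC, CD3E, LYZ and NKG7 and the endothelial marker KDR were also at 0 in all 9. The summed CPM of the 7 leukocyte markers was 50.5 to 81.0 in MHCC97L, 78.0 to 96.6 in MHCC97L-Src and 149 to 153 in MHCC97L-Oxa, chiefly CD68. CD14 on this list had counts of 16, 18 and 20 in the parental line, 97, 104 and 100 in MHCC97L-Src libraries and 91, 79 and 87 in those of MHCC97L-Oxa, the same order of lines as CASP14, and was called higher in both resistant lines (adjusted p = 0.0236 and 0.0428). The summed CPM of the 5 endothelial markers was 2.23 to 2.65, 11.9 to 15.6 and 1.43 to 1.80 in the same order of lines. It was chiefly CDH5 in MHCC97L-Src only, where edgeR called CDH5 higher (adjusted p = 0.0139). In MHCC97L-Oxa the mean CPM of CDH5 (0.501) was below that of PECAM1 (1.059), and in MHCC97L they were similar (1.255 and 1.126). The summed CPM of the 6 fibroblast markers was 107 to 202, 70.4 to 89.7 and 138 to 154. The 12 hepatocyte markers were not all at 0. SERPINA1 had counts of 1, 1 and 1 in the parental line, 22, 9 and 10 in MHCC97L-Src libraries and 31, 14 and 14 in those of MHCC97L-Oxa. It was called higher in MHCC97L-Oxa by edgeR (adjusted p = 0.0323) and did not pass the filter on low counts for MHCC97L-Src against MHCC97L. HNF4A had 2 to 13 counts in every library, and APOA1, APOA2, TF and FGB had 0 to 5. The part of these genes in the caspase levels was not tested.

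The next question was whether the other caspases differed along with CASP14. Against MHCC97L, 0 of the 7 passed the edgeR test at an adjusted p under 0.05 in MHCC97L-Src, where 2.13% of all tested genes did. At an unadjusted p under 0.05, 0 of the 7 passed there, against 3546 of 12037 tested genes. DESeq2 called 0 of the 7 there and 17.6% of all genes. In MHCC97L-Oxa 0 of the 7 passed the edgeR test at the adjusted threshold as well, against 0.953% of all tested genes. There 2 of the 7, CASP2 and CASP9, had an unadjusted p under 0.05, as did 2708 of 12064 tested genes. DESeq2 called 0 of the 7 in MHCC97L-Oxa and 7.4% of all genes. A miss does not show that a level was the same, as the standard errors below make plain. Over all tested genes the median log2 difference was −0.16 in MHCC97L-Src and −0.19 in MHCC97L-Oxa.

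Among the initiators, CASP2, which encodes the protease of the PIDDosome, had counts of 1654, 1596 and 1233 in the parental line, 1065, 811 and 1196 in MHCC97L-Src libraries and 1005, 942 and 782 in those of MHCC97L-Oxa. In CPM each resistant line lay below all 3 parental libraries, while the resistant lines overlapped each other. For MHCC97L-Src the margin was very small, with 68.02 CPM in its replicate 3 against 68.58 CPM in MHCC97L replicate 3. Libraries failed to overlap in either direction for 30.5% of tested genes in MHCC97L-Src and 29.5% in MHCC97L-Oxa, so this is common. The log2 fold change of CASP2 was −0.44 ± 0.24 (SE, adjusted p = 0.240) in MHCC97L-Src and −0.71 ± 0.22 (SE, adjusted p = 0.176) in MHCC97L-Oxa. For MHCC97L-Src it was 0.018 after correction for GC content and length.

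CASP9, the initiator of the mitochondrial pathway, had counts of 668, 1062 and 1037 in the parental line, 1014, 1032 and 1015 in MHCC97L-Src libraries and 1475, 1705 and 1576 in those of MHCC97L-Oxa. MHCC97L-Oxa was above every other library, and MHCC97L-Src lay among the higher parental libraries with hardly any spread. The log2 fold change was 0.25 ± 0.29 (SE, adjusted p = 0.578) in MHCC97L-Src and 0.77 ± 0.26 (SE, adjusted p = 0.196) in MHCC97L-Oxa. It was the only one of the 7 other caspases whose mean was higher than in MHCC97L in both resistant lines.

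CASP8, the death receptor initiator, had counts of 494, 348 and 208 in the parental line, 221, 97 and 371 in MHCC97L-Src libraries and 297, 249 and 200 in those of MHCC97L-Oxa. The ranges overlapped in every comparison, and the MHCC97L-Src libraries alone differed 3.69-fold in CPM. Its log2 fold changes were −0.53 ± 0.51 (SE, adjusted p = 0.494) and −0.48 ± 0.38 (SE, adjusted p = 0.437). CASP10, its neighbour and closest relative, was the least abundant of the 8, with counts of 53, 22 and 24 in the parental line, 34, 14 and 42 in MHCC97L-Src libraries and 41, 25 and 24 in those of MHCC97L-Oxa. Its log2 fold changes of −0.03 ± 0.53 (SE) and −0.11 ± 0.47 (SE) were far below their errors. CFLAR, which lies beside them and encodes the inhibitor c-FLIP, was not called in any comparison either.

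CASP6, the executioner that cuts lamin A, had counts of 216, 133 and 96 in the parental line, 75, 38 and 107 in MHCC97L-Src libraries and 118, 94 and 103 in those of MHCC97L-Oxa. The lines overlapped. The log2 fold change was −0.92 ± 0.50 (SE, adjusted p = 0.238) in MHCC97L-Src and −0.48 ± 0.40 (SE, adjusted p = 0.461) in MHCC97L-Oxa.

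The inflammatory caspases depended most on MHCC97L replicate 1. CASP1 had counts of 217, 46 and 79 in the parental line, 58, 36 and 84 in MHCC97L-Src libraries and 101, 138 and 151 in those of MHCC97L-Oxa. CASP4, the sensor of intracellular lipopolysaccharide, had 1057, 294 and 349, then 311, 186 and 318, then 475, 703 and 689 in the same order. In both genes replicate 1 of MHCC97L was above all other libraries, and the remaining parental libraries were close to the MHCC97L-Src level for CASP4. Log2 fold changes against MHCC97L were −0.81 ± 0.60 (SE, adjusted p = 0.372) and 0.23 ± 0.56 (SE, adjusted p = 0.811) for CASP1 in MHCC97L-Src and MHCC97L-Oxa. For CASP4 they were −0.93 ± 0.49 (SE, adjusted p = 0.233) and 0.18 ± 0.47 (SE, adjusted p = 0.832).

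Leaving out MHCC97L replicate 1 changed the count for MHCC97L-Oxa. Without it, 3 of the 7 passed the edgeR test, against 18.5% of all tested genes: CASP4 with a log2 fold change of 1.00 ± 0.22 (SE, adjusted p = 0.0264), CASP9 with 0.64 ± 0.09 (SE, adjusted p = 0.00856) and CASP2 with −0.60 ± 0.16 (SE, adjusted p = 0.0471). With all 6 libraries and a correction for GC content and length, 1 of the 7 passed, CASP4 at 0.98 ± 0.23 (SE, adjusted p = 0.0382), against 8.58% of all tested genes. Without MHCC97L replicate 2, 1 passed, CASP9, against 22.1% of all tested genes. For MHCC97L-Src, 0 of the 7 passed without replicate 1 (5.52% of all tested genes) or with the correction (9.55%).

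**Figure D3:**
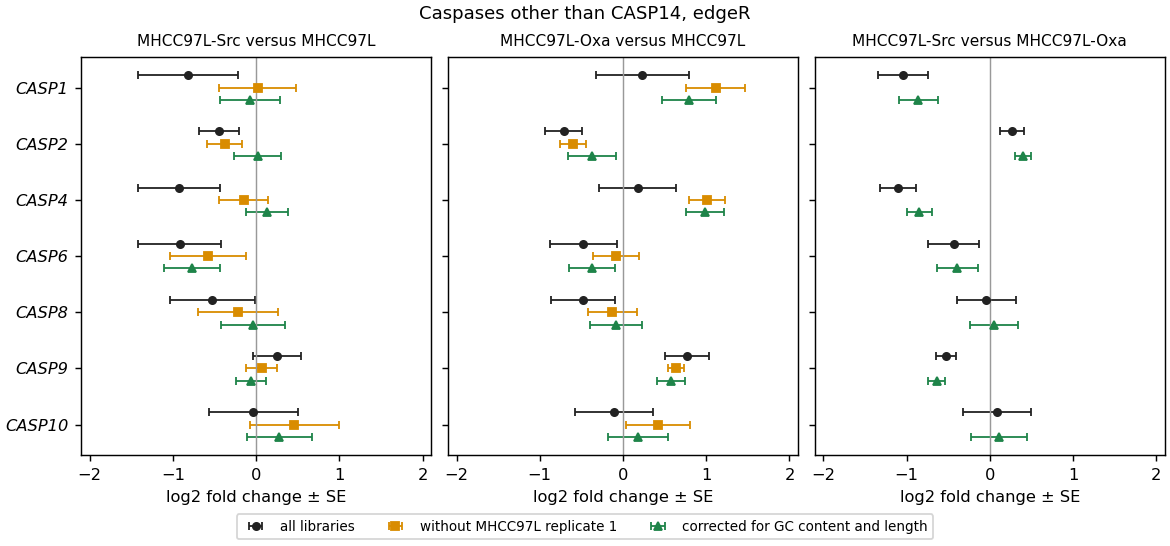
Log2 fold change ± SE of the 7 caspases other than CASP14 in 3 comparisons, fitted by edgeR with all libraries of the comparison, without MHCC97L replicate 1, and with a correction for GC content and length (the second does not apply to the right panel). CASP4 in MHCC97L-Oxa moves from 0.18 to 1.00 without MHCC97L replicate 1, while the right panel shows CASP4, CASP1 and CASP9 below 0 in either fit.

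The resistant lines were also set against each other. Here 2 of the 7 passed the edgeR test, both lower in MHCC97L-Src, against 4.64% of all tested genes. CASP4 fell by 1.10 ± 0.22 (SE) on the log2 scale (adjusted p = 0.0187). CASP9 fell by 0.52 ± 0.12 (SE) on the log2 scale (adjusted p = 0.0410). CASP1 had a log2 fold change of −1.04 ± 0.30 (SE) and missed the threshold (adjusted p = 0.0814), while DESeq2, which called 7% of all genes, called it (adjusted p = 0.0162). In all 3 genes every MHCC97L-Src library was below every MHCC97L-Oxa library in CPM, a separation seen in 27.6% of tested genes in either direction. CASP14 separated the opposite way. The median over all tested genes was −0.02 here. CASP2, CASP6, CASP8 and CASP10 overlapped, with log2 fold changes of 0.27 ± 0.14, −0.43 ± 0.31, −0.04 ± 0.35 and 0.09 ± 0.41 (SE).

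With the correction for GC content and length 3 of the 7 passed, against 9.02% of all tested genes: CASP4 and CASP9 as before, and CASP2 higher in MHCC97L-Src by 0.39 ± 0.10 (SE) on the log2 scale (adjusted p = 0.0378).

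Both calls were narrow. CASP4 was not called without MHCC97L-Oxa replicate 2 (adjusted p = 0.122) or replicate 3 (adjusted p = 0.0925), CASP9 was not called without MHCC97L-Src replicate 1 or any single library of MHCC97L-Oxa (adjusted p = 0.104 to 0.244), and neither was called with all 9 libraries in one fit (adjusted p = 0.570 and 0.713).

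CARD16, which encodes a decoy made of a caspase recruitment domain, lies in the chromosome 11 cluster at chr11:105041326-105101431 on the minus strand and moved with its neighbours. It had counts of 554, 203 and 271 in the parental line, 215, 142 and 204 in MHCC97L-Src libraries and 387, 598 and 570 in those of MHCC97L-Oxa. Every MHCC97L-Src library was below every MHCC97L-Oxa library, and its log2 fold change between them was −1.37 ± 0.21 (SE, adjusted p = 0.00569). Its sequence is close to that of CASP1, so reads may have been split between the genes and both values are uncertain. The remaining genes listed in the cluster, CARD17 and CARD18 among them, had at most 3 counts in any library.

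**Figure D4:**
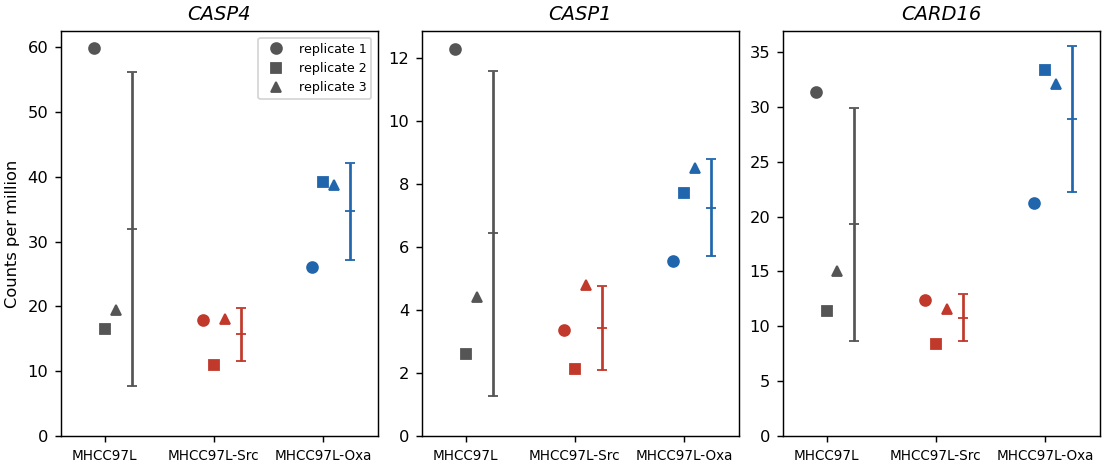
CPM of CASP4, CASP1 and CARD16 in each library by line, with the mean ± SD (n = 3) beside the points. The MHCC97L-Src libraries lie below all MHCC97L-Oxa libraries in each panel, and MHCC97L replicate 1 lies far above the other 2 parental libraries.

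In order of mean FPKM, MHCC97L held CASP2 (18.7 ± 3.09, SD), CASP9 (10.5 ± 2.66), CASP4 (9.06 ± 7.15), CASP6 (4.96 ± 2.00), CASP8 (3.38 ± 1.29), CASP14 (1.59 ± 0.596), CASP1 (1.19 ± 0.920) and CASP10 (0.208 ± 0.102). Of the neighbours in this order, only CASP2 and CASP9, and CASP1 and CASP10, had ranges that did not overlap. MHCC97L-Src held CASP14 (69.4 ± 20.1), CASP2 (13.0 ± 2.31) and CASP9 (12.3 ± 0.324) at the top, of which CASP2 and CASP9 overlapped and CASP14 stood clear. MHCC97L-Oxa held CASP14 (31.5 ± 5.49), CASP9 (18.4 ± 1.65), CASP2 (11.1 ± 1.33) and CASP4 (10.2 ± 1.56), of which only CASP2 and CASP4 overlapped.

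Genes next to CASP14 did not share its level. On one side OR7C2 and CCDC105 had no count in any library, and SLC1A6 had 0 to 4. On the other side OR1I1, 23.9 kb away, had no count. SYDE1 and ILVBL, 49.1 and 56.7 kb away, were counted in every library and had log2 fold changes of 0.55 ± 0.32 (SE, adjusted p = 0.262) and 0.93 ± 0.34 (SE, adjusted p = 0.128) in MHCC97L-Src. In MHCC97L-Oxa these were 0.61 ± 0.28 (SE, adjusted p = 0.234) and 0.60 ± 0.30 (SE, adjusted p = 0.257). In CPM, ILVBL was above all MHCC97L libraries in every library of both resistant lines, and SYDE1 in every MHCC97L-Oxa library. Such a separation, in either direction, was seen in 30.5% of tested genes in MHCC97L-Src and 29.5% in MHCC97L-Oxa.

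Cornification genes, the usual company of CASP14 in the epidermis, were mostly silent. Of the 23 on the list, 12 had no count in any library, among them FLG (filaggrin), LOR (loricrin), IVL (involucrin) and KRT1. A count of 0 allows up to 0.165 to 0.177 CPM. Only 5 or 6 of the 23 passed the filter on low counts. With all libraries edgeR called 0 of them in MHCC97L-Src, in MHCC97L-Oxa and between the resistant lines, against 2.13%, 0.953% and 4.64% of all tested genes. The median log2 fold change was 0.12 in MHCC97L-Src, −0.65 in MHCC97L-Oxa and 0.05 between the resistant lines. Without MHCC97L replicate 1 the medians against MHCC97L were −0.07 and −0.40. With the correction for GC content and length the 3 medians were −0.41, −0.70 and −0.12. The most abundant were BLMH, a peptidase of filaggrin breakdown, and KRT10, whose counts ran from 786 to 1121 over all 9 libraries. Named after their values were seen, TGM1 and PADI3 separated the lines. TGM1, a transglutaminase of the cornified envelope, had 96, 138 and 183 counts in MHCC97L but 25 to 47 in the resistant libraries, and PADI3, which citrullinates epidermal proteins, had 33, 48 and 46 against 111 to 174. Without MHCC97L replicate 1, where 5.52% and 18.5% of all tested genes were called in MHCC97L-Src and MHCC97L-Oxa, TGM1 was called lower in both resistant lines and PADI3 higher in MHCC97L-Oxa. The GC correction gave the same calls, against 9.55% and 8.58% of all tested genes. DESeq2 called TGM1 lower and PADI3 higher in both lines with all libraries, against 17.6% and 7.4% of all genes. The 10 keratinocyte markers summed to 46.0 to 60.2 CPM in MHCC97L, 48.5 to 56.9 in MHCC97L-Src and 52.6 to 62.7 in MHCC97L-Oxa, nearly all of it KRT10, with KRT1, DSG3, IVL, LOR and FLG at 0.

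Partners and targets of the other caspases were counted on further lists. With all libraries edgeR called 2.13% of all tested genes in MHCC97L-Src, 0.953% in MHCC97L-Oxa and 4.64% between the resistant lines. On lists this short, 0 called is near these shares and does not show that the genes were unchanged. Of 9 genes of the apoptosome and of mitochondrial release, all tested, 0 were called in any comparison with all libraries, and the most abundant were DIABLO, which relieves caspase inhibition, and AIFM1. Their median log2 fold changes were 0.15, 0.15 and 0.04 in the order used above. With the correction for GC content and length these medians were −0.395, −0.337 and −0.044, so their sign depended on the processing. Without MHCC97L replicate 1, 1 of the 9 was called in MHCC97L-Oxa, HTRA2 higher, against 18.5% of all tested genes. Of 12 genes of the death receptor and PIDDosome complexes, 11 were tested and 0 called, with medians of 0.36, 0.21 and −0.02. TNFRSF1A and TNFRSF10B, the receptors for TNF and TRAIL, were the most abundant. Here too 1 was called higher in MHCC97L-Oxa without that library, the adaptor TRADD. Of 8 caspase inhibitors 5 were tested and 0 called, with medians of −2.08, −1.65 and −0.35. BIRC5 (survivin) was the most abundant of them, followed by XIAP, which had 699, 52 and 187 counts in MHCC97L and 46 to 124 in the resistant libraries. Without MHCC97L replicate 1 the medians were −1.41 and −0.84 against MHCC97L. With the correction for GC content and length they were −0.80 and −0.76. DESeq2 called 2 of these 5, XIAP and BIRC2, lower in MHCC97L-Src, against 17.6% of all genes. A list of 5 further caspase-named genes had 3 tested and 0 called in each comparison.

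Of 18 inflammasome and pyroptosis genes 10 were tested, with median log2 fold changes of 0.32, 0.50 and −0.22. MEFV, which encodes the inflammasome sensor pyrin, was the only one called by edgeR in MHCC97L-Src, with counts of 5, 3 and 7 in the parental line, 32, 18 and 38 in MHCC97L-Src libraries and 17, 29 and 21 in those of MHCC97L-Oxa. Its log2 fold change was 2.62 ± 0.52 (SE, adjusted p = 0.0441) in MHCC97L-Src and 2.13 ± 0.49 (SE, adjusted p = 0.0930) in MHCC97L-Oxa, where 0 of the 10 were called. Between the resistant lines edgeR called CARD16 alone. Over all tested genes edgeR called 2.13% in MHCC97L-Src, 0.953% in MHCC97L-Oxa and 4.64% between the resistant lines. DESeq2 called MEFV and NLRP1 higher and IL18 lower in MHCC97L-Src, NLRP1 higher and IL18 lower in MHCC97L-Oxa, and CARD16 and NLRP1 lower in MHCC97L-Src than in MHCC97L-Oxa, against 17.6%, 7.4% and 7% of all genes. The GC correction called MEFV in MHCC97L-Src, NLRP1 and CARD16 in MHCC97L-Oxa, and CARD16 and NLRP1 between the resistant lines, against 9.55%, 8.58% and 9.02% of all tested genes. The adaptor PYCARD, which links such sensors to caspase-1, had no count in any library. Without MHCC97L replicate 1, 4 of the 10 were called higher in MHCC97L-Oxa (NLRP1, MEFV, GSDMB and CARD16) and IL18, the precursor of a cytokine that caspase-1 matures, was called lower, against 18.5% of all tested genes. NLRP1, a sensor that activates caspase-1, had counts of 67, 109 and 47 in the parental line, 255, 170 and 274 in MHCC97L-Src libraries and 344, 430 and 384 in those of MHCC97L-Oxa. IL18 had 1638, 633 and 559, then 239, 163 and 341, then 369, 403 and 331 in the same order of lines, so both resistant lines lay below MHCC97L.

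Of 10 caspase substrates, all tested, 0 were called against MHCC97L in either line, against 2.13% and 0.953% of all tested genes. The medians were −0.49 and −0.44. Between the resistant lines the median was 0.08 and 1 was called, against 4.64% of all tested genes. This was GSN, the actin-severing protein gelsolin, with counts of 4140, 6796 and 6945 in the parental line, 2870, 3061 and 2680 in MHCC97L-Src libraries and 7261, 7239 and 7888 in those of MHCC97L-Oxa. MHCC97L-Src was below all other libraries, and the log2 fold change against MHCC97L-Oxa was −1.26 ± 0.13 (SE, adjusted p = 4.68e-04). Without MHCC97L replicate 1 the medians against MHCC97L were −0.26 and −0.18, and 1 of the 10 was called lower in each line, GSN in MHCC97L-Src and ACIN1, a protein of chromatin condensation, in MHCC97L-Oxa, against 5.52% and 18.5% of all tested genes. With the GC correction GSN and ACIN1 were called lower in MHCC97L-Src and ACIN1 in MHCC97L-Oxa, against 9.55% and 8.58%.

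The genes whose log2 CPM followed CASP14 most closely over the 9 libraries, among 12231, were SNED1, S100A9, SSPO, ADAM8 and ENTPD2. Their Pearson's r with CASP14 was 0.990, 0.989, 0.988, 0.986 and 0.985, given as a description, since the libraries form 3 lines and share their depth. S100A9, a calcium-binding protein of myeloid cells and stressed epithelia, had counts of 15, 13 and 12 in the parental line, 628, 602 and 688 in MHCC97L-Src libraries and 238, 248 and 250 in those of MHCC97L-Oxa. SNED1, a matrix protein, had 57, 40 and 53, then 368, 451 and 444, then 277, 280 and 270 in the same order. Both kept the order of CASP14, with MHCC97L-Src highest and MHCC97L lowest, which largely follows from choosing them by correlation with CASP14. For the other caspases r with CASP14 ran from −0.725 for CASP2 to 0.484 for CASP9.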

How the data were processed

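RNA of MHCC97L, MHCC97L-Src and MHCC97L-Oxa was sequenced from stranded poly(A) libraries read from both ends. The authors deposited raw counts per gene and FPKM values. Per the labels, Trimmomatic 0.36, HISAT2 2.2.1.0 and GRCh38.p12 were used; the counting program is not given in the sources used here. The label's line gave each library its group. Each pair of lines was compared on the counts of its 6 libraries by edgeR's quasi-likelihood test after filterByExpr (minimum count 10) and TMM normalization, with Benjamini-Hochberg adjustment over all tested genes. Standard errors were obtained from each log2 fold change and its F statistic. CPM used all counts of a library. The scripts were tested on simulated data. The members and lists were chosen with earlier results of these data known. Named were all 8 caspases, up to 4 called members of a list and otherwise its 2 most abundant, CASP14's 3 nearest genes on each side, genes within caspase clusters and the 5 genes most correlated with CASP14; the list of further caspases is given as counts only. FLG, LOR, IVL, KRT1, TGM1, PADI3, NLRP1, IL18, GSDMB, BIRC2, HTRA2, TRADD, ACIN1, CD14, CD68, CDH5, PECAM1 and PYCARD were named after their values were seen. So were SERPINA1, HNF4A, APOA1, APOA2, TF and FGB. GC content and length came from GENCODE release 29 for 19343 of 20030 genes and entered as natural splines with 5 degrees of freedom. Alternatives comprised DESeq2, other scalings and filters, the replicate block, all 9 libraries in one fit, limma on log2(FPKM + 1) and log2(FPKM + 0.1), and each library left out. List counts without MHCC97L replicate 1, with the correction and with DESeq2 were added after seeing the data. Tools were edgeR 4.0.16, DESeq2 1.42.0 and limma 3.58.1 in R 4.3.3, and matplotlib 3.10.9, SciPy 1.17.1 and pandas 2.3.3 in Python 3.11.15. Reads were amplified by PCR and carry no molecular identifiers, so intervals and floors cover counting error only.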

Additional observations from a re-analysis of the deposited data

Results flagged for a closer look

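The 2 resistant lines, each a single selected line, differed in CASP4 and CASP9 by the direct edgeR test between them. Against MHCC97L neither gene was called in either line by that test with all libraries and no correction. With the correction for GC content and length, edgeR called CASP4 higher in MHCC97L-Oxa (adjusted p = 0.0382). Neither call between the resistant lines held with all 9 libraries in one fit, and each was lost when some single libraries were left out. MHCC97L-Src set against MHCC97L-Oxa gave a log2 fold change of −1.10 for CASP4 and −0.52 for CASP9.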

How the results depend on the processing

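The log2 fold change of CASP14 kept its direction under every alternative run, at 4.75 to 5.91 in MHCC97L-Src and 3.66 to 4.70 in MHCC97L-Oxa, the lowest values being those of limma on log2(FPKM + 1), whose pseudocount shrinks low levels. Between the resistant lines it was 1.01 to 1.53. The number of the 7 other caspases called in MHCC97L-Src stayed at 0 in each alternative at the adjusted threshold. In MHCC97L-Oxa it was 1 with the correction for GC content and length, alone or with the replicate block, and 0 to 3 with 1 library left out. Between the resistant lines it was 3 with DESeq2, 3 with the correction, 1 with DESeq2's size factors, 1 with the replicate block, 1 with the correction and the block together, 0 with all 9 libraries in one fit, and 0 to 3 with 1 library left out. For the size factors, the block, the fit of all 9 libraries and most fits with 1 library left out, the share of all genes called was not computed. Changes in those counts are therefore not read as results about the caspases. No pairing by replicate number was seen, as same-numbered deviations correlated from −0.631 to 0.417. The deviations of single libraries also followed GC content, with rho from −0.781 to 0.699. These correlations therefore cannot exclude a shared culture or batch. Some log2 fold changes turned sign. In MHCC97L-Src, the correction gave 0.018 for CASP2, 0.13 for CASP4, −0.061 for CASP9 and 0.28 for CASP10, and with the replicate block 0.10, 0.15, −0.057 and 0.25. CASP10 was 0.059 with DESeq2 and 0.059 with its size factors, and 0.0045 without a filter. In MHCC97L-Oxa the correction gave 0.18 for CASP10 alone and 0.18 with the block. Between the resistant lines it gave 0.053 for CASP8, and limma gave −0.023 (pseudocount 1, with or without a filter) and −0.13 (pseudocount 0.1) for CASP10. With 1 library left out, the ranges that crossed 0 were −1.10 to 0.018 for CASP1 and −0.28 to 0.46 for CASP10 in MHCC97L-Src, −0.038 to 1.11 for CASP1, −0.061 to 1.00 for CASP4 and −0.40 to 0.42 for CASP10 in MHCC97L-Oxa, and −0.50 to 0.28 for CASP8 and −0.17 to 0.37 for CASP10 between the resistant lines. The cause was not tested.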
